A study of Mus musculus with 6 samples.

Results

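A divergent promoter is a stretch of DNA from which 2 neighbouring genes are transcribed away from each other, the minus-strand gene to the left and the plus-strand gene to the right. Pairs of protein-coding genes of the GENCODE M21 annotation (mouse build GRCm38, also called mm10) on chromosomes 1 to 19 were taken where the minus-strand gene lay left of the plus-strand gene and their gene starts, the 5′ ends of the annotated genes, were 0 to 1000 bp apart. The annotation alone chose them, and no measured value entered. This gave 735 pairs with 1450 genes, of 20807 protein-coding genes on these chromosomes; 40 pairs shared a gene with another pair. The starts were close together, with a median distance of 128 bp (quartiles 66 and 240 bp, range 0 to 987 bp), and 559 pairs (76.1%) were at most 250 bp apart.

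H3K79me2 (histone H3 dimethylated at lysine 79) is placed by the methyltransferase DOT1L and lies over the first kilobases of transcribed genes, downstream of the start. At a divergent promoter this mark can extend in both directions, into either gene. Many divergent promoters are rich in CpG, and their genes are often housekeeping genes of DNA repair, mitochondria and RNA metabolism.

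ChIP-seq, which sequences the DNA pulled down with an antibody against the mark, was run on N2a cells 3 days after transfection; N2a is a cell line established from a mouse neuroblastoma. CTR cells carried the pLKO.1-shCTR non-target hairpin plasmid and NPM1 KD cells the pLKO.1-shNpm1 plasmid, a single hairpin against Npm1, which encodes the nucleolar phosphoprotein nucleophosmin. Cells of the knockdown experiments were selected with puromycin at 9.3 µg/ml according to the methods of the study. The sample annotation lists it for NPM1 KD and leaves it blank for CTR. Each group had 2 libraries, from separate passages and transfection batches, and 1 pooled input per group that is not analysed here. The comparison asks whether the mark at these promoters differed after the loss of NPM1. The files hold peak lists and no read counts, so sequencing depth is unknown. The local background that the peak caller used, a relative measure of depth, was 11.9 and 7.65 fragments in CTR 1 and CTR 2 and 8.99 and 11.8 in NPM1 KD 1 and NPM1 KD 2. The broad lists held 34845 to 48764 peaks over 223 to 253 Mb, with the most peaks in CTR 1 and the largest covered length in NPM1 KD 1. Npm1 itself was marked in all 4 libraries, which says nothing of its knockdown. Of 7 genes of neurons or neuroblastoma, 5 were marked in all 4 libraries (Tubb3, Gata2, Hand2, Isl1 and Stmn2) and 2 in none (Gata3 and Nefl), while none of 5 genes of other tissues was marked in any.

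A side of a pair was called marked where broad peaks covered at least 1000 bp of the first 2000 bp of its gene, counted from the gene start. This window, and the 1000 bp and 5 kb windows named below, were not cut at the end of the gene. In a shorter gene they take in sequence beyond it. Reach is the distance in bp from the gene start to the far edge of the peak that overlaps the first 1000 bp of the gene, and 0 where there is none. The total extent is the sum of both reaches, and the symmetry ratio is the shorter reach divided by the longer. All values refer to the broad lists unless narrow peaks are named.

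The promoter sequences of 6 pairs are shown first, since they stand for the patterns described below. Brca1/Nbr1, Mrps12/Sars2 and Atm/Npat were marked on both sides, Zfp277/Dock4 had the largest total extent in both NPM1 KD libraries, Surf4/Stkld1 was marked on 1 side, and Col4a4/Col4a3 had no peak. Each is the 300 bp centred on the middle between the gene starts, read from the RefSeq genome GRCm38.p6 on the plus strand, 5′ to 3′. Capitals mark CCGGAAG (the letters bound by the GABPA factor) and CCAAT (NFY), or their reverse complements.
Brca1/Nbr1: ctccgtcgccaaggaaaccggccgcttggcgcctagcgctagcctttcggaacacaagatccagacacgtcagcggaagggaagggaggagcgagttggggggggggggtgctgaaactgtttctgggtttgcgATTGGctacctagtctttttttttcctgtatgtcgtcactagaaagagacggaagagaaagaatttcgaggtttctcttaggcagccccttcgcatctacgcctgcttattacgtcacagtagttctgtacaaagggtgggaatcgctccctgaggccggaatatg
Mrps12/Sars2: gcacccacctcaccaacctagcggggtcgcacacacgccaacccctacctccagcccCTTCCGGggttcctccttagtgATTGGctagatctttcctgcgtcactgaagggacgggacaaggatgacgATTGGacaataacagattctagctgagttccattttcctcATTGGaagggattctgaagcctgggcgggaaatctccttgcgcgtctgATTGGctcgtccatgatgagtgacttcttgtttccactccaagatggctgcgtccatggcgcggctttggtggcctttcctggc
Atm/Npat: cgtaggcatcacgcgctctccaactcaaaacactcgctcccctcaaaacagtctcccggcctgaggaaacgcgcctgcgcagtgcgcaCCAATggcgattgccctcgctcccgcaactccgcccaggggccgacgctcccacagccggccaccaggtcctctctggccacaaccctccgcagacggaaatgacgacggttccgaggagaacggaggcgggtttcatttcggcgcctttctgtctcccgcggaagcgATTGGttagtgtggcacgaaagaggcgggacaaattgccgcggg
Zfp277/Dock4: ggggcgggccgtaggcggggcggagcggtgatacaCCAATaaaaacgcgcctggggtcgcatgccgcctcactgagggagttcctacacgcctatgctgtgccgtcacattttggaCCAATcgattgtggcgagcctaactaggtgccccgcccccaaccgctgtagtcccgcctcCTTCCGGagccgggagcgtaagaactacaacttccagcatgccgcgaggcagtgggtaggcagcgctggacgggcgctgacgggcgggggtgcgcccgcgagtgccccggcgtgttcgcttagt
Surf4/Stkld1: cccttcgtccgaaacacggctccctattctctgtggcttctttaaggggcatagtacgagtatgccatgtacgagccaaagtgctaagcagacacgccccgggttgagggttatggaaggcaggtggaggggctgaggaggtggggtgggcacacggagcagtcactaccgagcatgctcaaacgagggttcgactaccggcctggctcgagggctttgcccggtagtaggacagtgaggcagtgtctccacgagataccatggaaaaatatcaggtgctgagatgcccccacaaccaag
Col4a4/Col4a3: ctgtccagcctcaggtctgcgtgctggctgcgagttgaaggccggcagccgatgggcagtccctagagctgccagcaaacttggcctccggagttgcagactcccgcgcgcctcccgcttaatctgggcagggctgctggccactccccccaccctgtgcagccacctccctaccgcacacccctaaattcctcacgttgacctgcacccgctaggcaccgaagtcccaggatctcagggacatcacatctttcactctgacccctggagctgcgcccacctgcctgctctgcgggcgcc
The coordinates of these windows are chr11:101551903-101552202 for Brca1/Nbr1, chr7:28741757-28742056 for Mrps12/Sars2, chr9:53536744-53537043 for Atm/Npat, chr12:40445778-40446077 for Zfp277/Dock4, chr2:26933838-26934137 for Surf4/Stkld1 and chr1:82586736-82587035 for Col4a4/Col4a3. Counted from 1 at the left end, transcription of Brca1 starts at base 53 and runs to the left, and that of Nbr1 starts at base 247 and runs to the right. In the Mrps12/Sars2 window, CCAAT is present 4 times in reverse and CCGGAAG once in reverse. The Surf4/Stkld1 and Col4a4/Col4a3 windows held none of the motifs searched, but many other pairs of their classes did, as given below.

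Most pairs carried H3K79me2 on both sides. In CTR 1 and CTR 2, 65.3% and 63.4% of the 735 pairs were marked on both sides, and in NPM1 KD 1 and NPM1 KD 2 it was 69.1% and 67.5%. Across all 4 libraries, 455 pairs (61.9%) were marked on both sides in every library, 139 (18.9%) on the same single side in every library and 61 (8.30%) on neither side in any. For the other 80 pairs the call differed between libraries. In 46 pairs no peak covered any of the first 5 kb of either gene in any library.

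Coverage formed a double peak around the middle of the pairs. At 1 kb into the plus-strand gene 76.7% to 80% of pairs were covered in the 4 libraries, and at 1 kb into the minus-strand gene 77.4% to 81.1%. At the middle itself 63.0% to 72.1% were covered. The dip was deeper in the narrow lists, where 38.8% to 51.7% of pairs were covered at the middle and at least 73.6% at 1 kb to either side. Coverage fell to 52.7% to 60.1% at 5 kb into the plus-strand gene and 55.4% to 61.1% at 5 kb into the minus-strand gene. At 20 kb it was 25.2% to 29.8% on the plus side and 29.5% to 34.7% on the minus side, and the minus side was higher in each of the 4 libraries at 5, 10 and 20 kb.

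**Figure D1:**
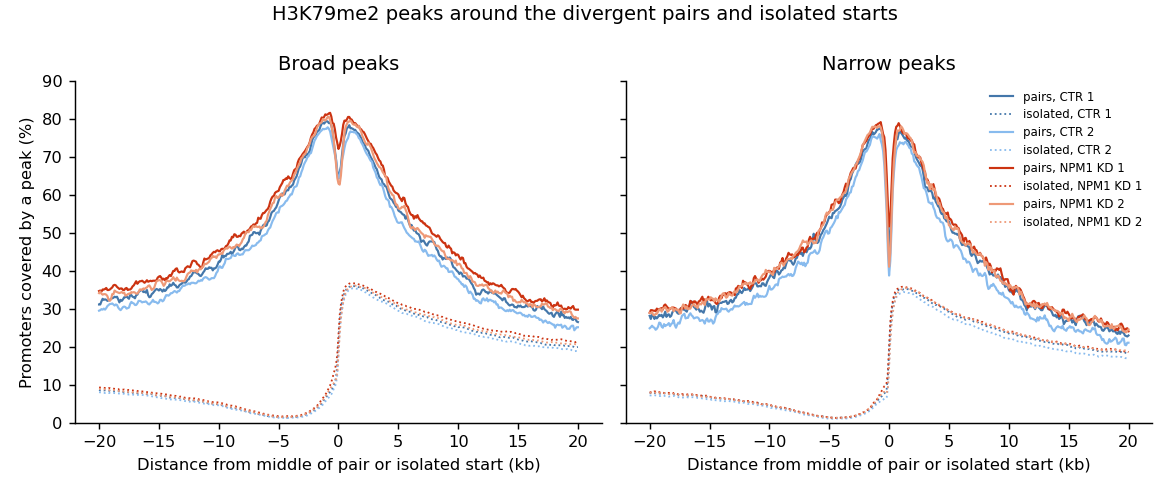
Share of promoters covered by a broad (left) or narrow (right) H3K79me2 peak at each distance from the middle of the 735 pairs (solid lines) or from the start of isolated genes (dotted lines), 1 line per library, with the direction of transcription of isolated genes to the right. Pairs show 2 shoulders with a dip at the middle, whereas isolated starts are covered at 35.2% to 36.8% at 1 kb downstream and at 6.01% to 7.91% at 1 kb upstream in the broad lists.

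Isolated promoters served for comparison. They were the 11031 protein-coding genes outside the pairs with no other annotated gene in the 5 kb upstream of the start. A pair gene was marked in 78.3% ± 1.81 of cases and an isolated gene in 35.4% ± 0.699 (SD, n = 4 libraries), and the difference of 42.9 percentage points had the same direction in 4 of 4 libraries (exact sign-flip test over libraries, two-sided, p = 0.12, the smallest that 4 libraries allow). The 2 kb upstream of a pair gene, which lies mostly in its partner, were covered over 1501 ± 40.5 bp on average, against 155 ± 21.02 bp upstream of isolated genes (p = 0.12, same exact test). Among marked genes, at least 1000 of the 2000 bp upstream were covered for 84.3% ± 1.69 of pair genes and for 18.3% ± 2.16 of isolated genes.

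The difference in marking was seen in each class of gene length. Of pair genes under 10 kb, 77.0% ± 2.70 were marked, against 17.9% ± 0.529 of isolated genes of that length (n = 4 libraries). From 10 to 30 kb it was 80% ± 1.87 against 40.6% ± 0.840, from 30 to 100 kb 78.9% ± 1.21 against 50.4% ± 0.725, and from 100 kb 73.0% ± 1.66 against 39.6% ± 0.821. Thus the marked share of pair genes stayed within 73.0% to 80% over the length classes, while that of isolated genes did not.

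Marked pair genes of 10 kb or more had a shorter median reach than marked isolated genes of the same length class. Their median reach was 8.15 ± 0.331 kb against 9.69 ± 0.443 kb for genes of 10 to 30 kb, 11.5 ± 0.720 against 18.8 ± 1.08 kb for 30 to 100 kb and 13.0 ± 1.31 against 25.3 ± 1.99 kb for 100 kb or more, shorter in 4 of 4 libraries in each class (exact sign-flip test, two-sided, p = 0.12, the smallest possible). For genes under 10 kb the medians were 4.94 ± 0.306 and 5.04 ± 0.141 kb (exact p = 0.375). Lengths were not equal within a class. From 30 to 100 kb, marked pair genes had a median length of 44.3 to 44.6 kb and marked isolated genes 51.6 to 51.7 kb. Pairs marked on both sides were also split into the farther and the nearer side by reach itself, so a gap between them is built in. The farther side had a median reach of 11.2, 17.4 and 29.5 kb in the classes from 10 kb. The nearer side had 5.53, 6.13 and 5.33 kb. The marked gene of a pair marked on 1 side was shorter in reach than isolated genes. At 30 to 100 kb of length its median was 13.2 ± 1.46 kb, from 42 to 50 genes per library, against 18.8 kb (exact p = 0.12).

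**Figure D2:**
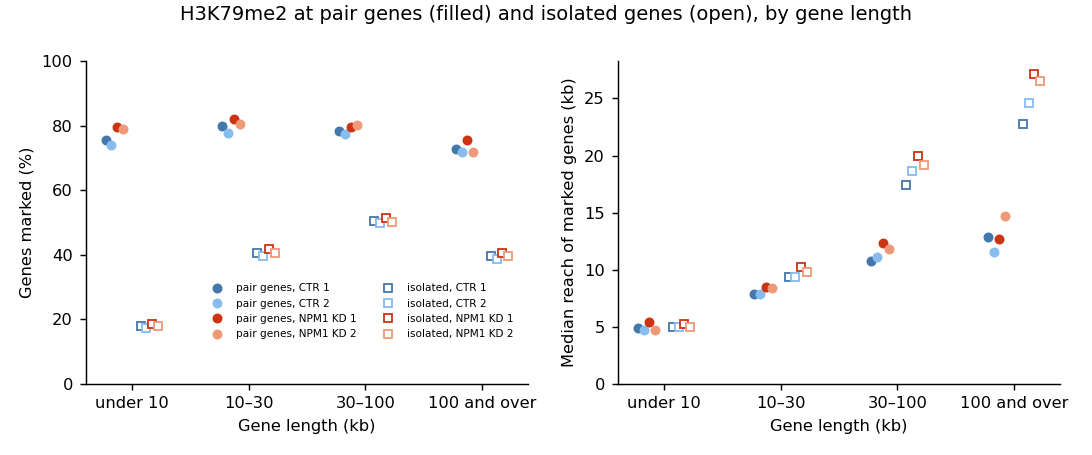
Share of genes marked (left) and median reach of marked genes in kb (right) by class of gene length, with 1 point per library for pair genes (filled) and isolated genes (open). Pair genes lie above isolated genes in marking in every class, and from 10 kb of length lie below them in reach, with 13.0 against 25.3 kb in the longest class.

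Divergent neighbours farther apart were the nearest comparison. In 866 pairs of neighbouring protein-coding genes with starts over 1000 and up to 10000 bp apart, 29.3% ± 1.36 were marked on both sides, against 66.3% ± 2.50 of the pairs up to 1000 bp (n = 4 libraries, exact p = 0.12). The partner of a marked gene was itself marked in 84.6% ± 1.26 of cases in the pairs and in 63.8% ± 1.21 in the wider pairs (exact p = 0.12). Txndc12, the plus-strand gene of the widest pair inside it (Btf3l4/Txndc12, 987 bp), had reaches of 11772, 17534, 11869 and 17363 bp in CTR 1, CTR 2, NPM1 KD 1 and NPM1 KD 2. Its partner Btf3l4 had 13679 to 14597 bp. The next 2 inside the limit were Asphd1/Sez6l2 (981 bp), with 2170 to 3395 and 2388 to 4040 bp, and Zfyve26/Rad51b (978 bp), with 4912 to 5232 bp into Zfyve26 and 879, 0, 968 and 0 bp into Rad51b. Just outside, Gpr108/Trip10 (1009 bp), Sgsm2/Tsr1 (1011 bp) and Dirc2/Hspbap1 (1019 bp) were also covered on both sides in every library, with reaches of 2417 to 16236 bp.

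Whether 1 peak lay over both starts depended on the distance. A single broad peak covered both gene starts in 78.7% ± 3.12 of the 307 pairs up to 100 bp apart (n = 4 libraries). The share was 64.6% ± 4.67 over 100 and up to 250 bp, 49.1% ± 8.11 over 250 and up to 500 bp and 24.3% ± 4.41 over 500 bp, a decrease seen in every library. Narrow peaks followed the same order at lower levels, from 59.9% ± 5.57 to 10.7% ± 3.87. Marking on both sides fell less, from 72.2% of pairs up to 100 bp to 47.1% over 500 bp. Where both sides were marked without a common peak, the gap around the middle had a median of 715 to 921 bp over the libraries. The 3 pairs with the closest starts, Nsa2/Gfm2 (0 bp), Bag4/Lsm1 (1 bp) and Slc7a6os/Prmt7 (1 bp), each lay under 1 broad peak in all 4 libraries. Brca1/Nbr1, 194 bp apart, was marked on both sides but not under a common peak in any library.

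**Figure D3:**
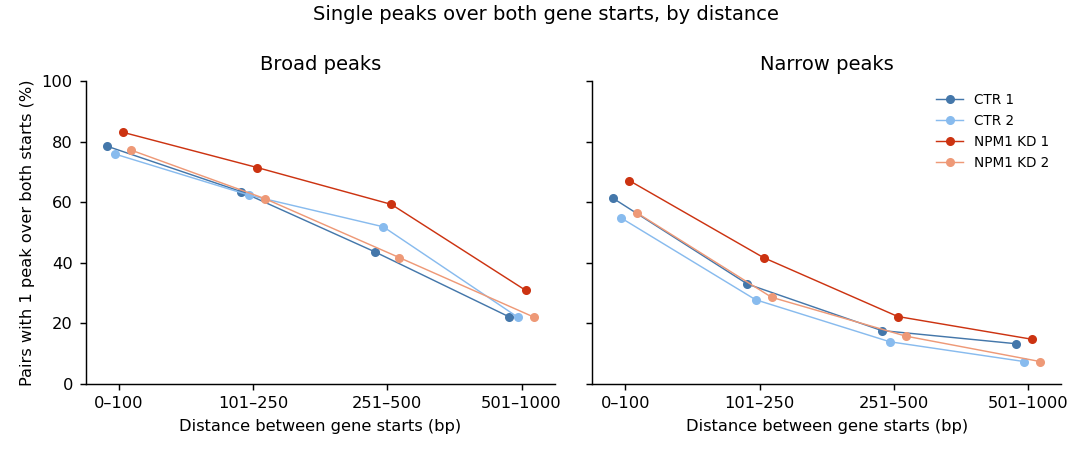
Share of pairs whose gene starts lie under 1 broad (left) or narrow (right) peak, in 4 classes of distance between the starts, with 1 point per library. The share falls from 75.9% to 83.1% at up to 100 bp to 22.1% to 30.9% over 500 bp in the broad lists, with NPM1 KD 1 highest in every class.

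The reach into the 2 genes of a pair was rarely equal. Among pairs marked on both sides, the median symmetry ratio was 0.487 in both CTR libraries, 0.476 in NPM1 KD 1 and 0.482 in NPM1 KD 2. A ratio of 0.8 or more was seen in 16.7% to 17.7% of these pairs and a ratio under 0.1 in 4.51% to 6.25%. In the wider pairs the median ratio was 0.441 ± 0.00781, lower than in the pairs in 4 of 4 libraries (0.483 ± 0.00537, exact p = 0.12). The side with the longer reach was stable between libraries. Of the 455 pairs marked on both sides in every library, the same side was farther in all 4 libraries in 385, the minus-strand side in 201 and the plus-strand side in 184.

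Gene length went with the farther side only weakly. The longer gene of the pair had the longer reach in 54.6%, 57.1%, 56.1% and 56.7% of pairs marked on both sides in CTR 1, CTR 2, NPM1 KD 1 and NPM1 KD 2. Where the lengths differed at least 2-fold it was 57.8% to 62.2%. Across pairs marked on both sides, the Spearman correlation of the reaches into both genes was 0.170 to 0.218 in the 4 libraries, from 466 to 508 pairs per library. In the wider pairs it was 0.00963 to 0.0439. These are correlations across pairs of the same library, given as a description. Reach also passed the gene's own 3′ end in 16.4% to 20.5% of the 910 sides of the pairs marked on both sides in every library, so a long reach can lie partly in the next gene.

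**Figure D4:**
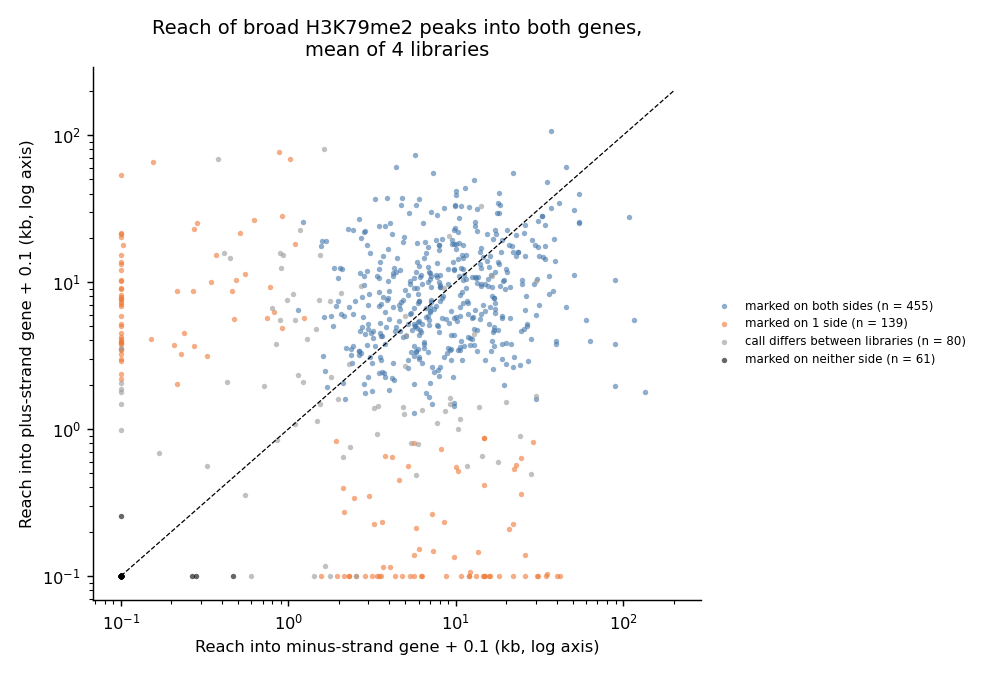
Mean reach over 4 libraries into the plus-strand gene against that into the minus-strand gene for the 735 pairs, in kb on log axes after adding 0.1 kb, coloured by call, with the line of equal reach dashed. The 455 pairs marked on both sides scatter widely around the line, and of the 139 pairs marked on 1 side some lie along either axis, at 0 bp on the other side, and others lie off it.

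Height was also unequal in the pairs with a narrow peak summit on both sides. Narrow peak fold is the pileup at the summit over the local background, as deposited. In 195 to 217 pairs per library with a narrow peak summit in the first 2 kb of both genes, the median absolute log2 ratio of the highest folds was 1.04 and 0.981 in the CTR libraries and 1.08 and 0.930 in the NPM1 KD libraries. The folds lay within a factor of 2 of each other in 48% to 53.0% of these pairs. Another 391 to 419 pairs per library had a summit in this window on 1 side only and gave no ratio. The difference between NPM1 KD and CTR in the median log2 ratio was -0.00649 (exact permutation test, two-sided, p = 1), and it was 0.0229 without CTR 1 and 0.0679 without NPM1 KD 2. The highest summit lay 798 ± 97.5 bp from the start in pair genes and 805 ± 144 bp in isolated genes (exact p = 1). Over the first 5 kb the medians were 984 ± 116 and 1130 ± 226 bp, nearer the start in pair genes in 4 of 4 libraries (exact sign-flip test, p = 0.12, the smallest possible). The median highest fold over the first 2 kb was 12.1 ± 0.967 in pair genes and 12.4 ± 1.46 in isolated genes (exact sign-flip test, p = 0.25). In NPM1 KD 2 it was higher in pair genes, at 10.7 against 10.4. Over the first 5 kb it was 12.1 ± 0.592 in pair genes and 12.9 ± 0.933 in isolated genes, lower in pair genes in 4 of 4 libraries (exact p = 0.12).

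Of 15 textbook divergent pairs looked for, the distance rule held 7, of which 5 were marked on both sides in every library. Brca1, a gene of homologous recombination repair, had reaches of 18833, 19040, 18890 and 20033 bp in CTR 1, CTR 2, NPM1 KD 1 and NPM1 KD 2. Nbr1, an autophagy receptor, had 9604, 9727, 12016 and 9732 bp. In each library the mark thus extended farther into Brca1. Atm, the DNA damage kinase, had 4258, 3855, 4219 and 4303 bp, and Npat, a coactivator of histone genes, 12426, 12287, 12171 and 12300 bp. Here the plus side was farther although Atm is the longer gene (97592 against 37296 bp). Gart, an enzyme of purine synthesis, reached 7776 to 9174 bp and Son, a splicing factor of nuclear speckles, 31280 to 32530 bp. Mcm4, a subunit of the replicative helicase, had 2167, 2046, 2365 and 2698 bp and Prkdc, the catalytic subunit of DNA-dependent protein kinase, 3572, 3369, 3599 and 3753 bp, although Prkdc is 204370 bp long. Mrps12, a protein of the small mitochondrial ribosomal subunit, and Sars2, the mitochondrial seryl-tRNA synthetase, were nearly even, at 2445 to 3488 and 2530 to 3458 bp. In Nbr1, Mcm4 and Prkdc both NPM1 KD libraries were above both CTR libraries, as in 38.6% of all protein-coding genes tested, and in the other genes of these 5 pairs the groups overlapped.

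In the Tsc2/Nthl1 pair the call varied. Tsc2, an inhibitor of the mTORC1 pathway, reached 1693, 1707, 3178 and 1530 bp, while Nthl1, a glycosylase of base excision repair, reached 587, 0, 450 and 1128 bp in CTR 1, CTR 2, NPM1 KD 1 and NPM1 KD 2. Col4a4/Col4a3, which encode chains of basement membrane collagen, lay 72 bp apart and had no covered base in the first 5 kb of either gene in any library.

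**Figure D5:**
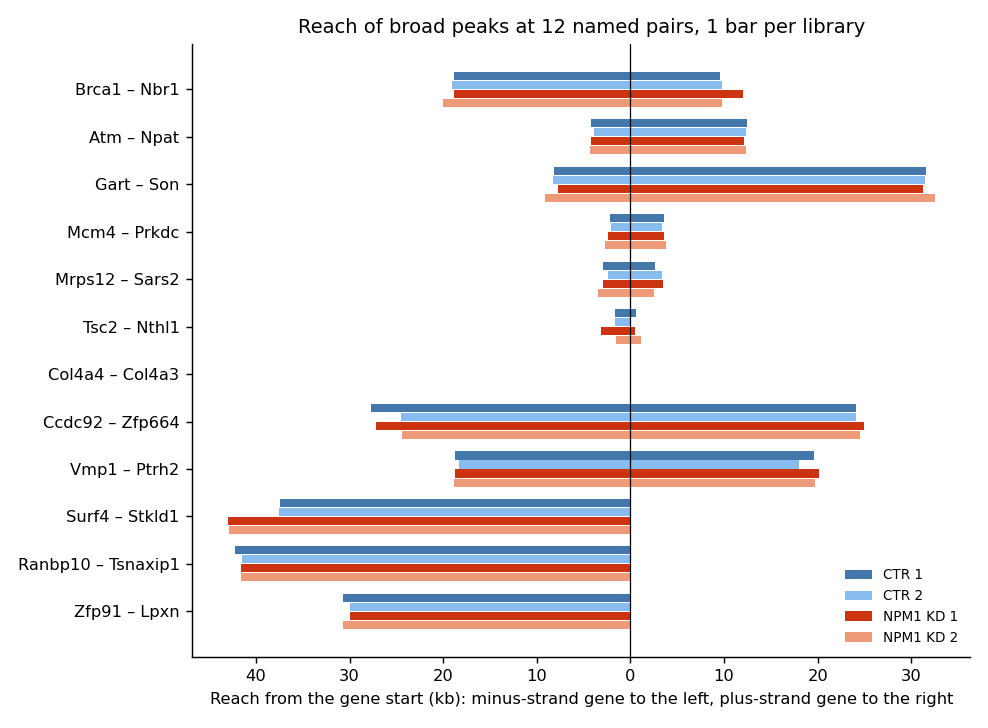
Reach of broad peaks in kb at 12 named pairs, to the left for the minus-strand gene and to the right for the plus-strand gene, with 1 bar per library. The first 7 are textbook pairs, Ccdc92/Zfp664 and Vmp1/Ptrh2 are among the most balanced, and the last 3 are marked on the minus-strand side and at 0 bp on the other side in all 4 libraries.

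The 5 pairs of largest total extent differed in balance. Srgap2, a regulator of neuronal migration, had reaches of 115554, 115414, 115538 and 115551 bp, and its partner Fam72a had 6173, 4839, 5337 and 5325 bp in CTR 1, CTR 2, NPM1 KD 1 and NPM1 KD 2. Hs2st1, a sulfotransferase of heparan sulfate, reached 106099 to 109546 bp, and Selenof, a selenoprotein of the endoplasmic reticulum, 26756 to 28273 bp. Sobp reached 118885 to 160160 bp and its 1859 bp partner 9030612E09Rik 1572 to 1713 bp. In Phtf2/Tmem60 the plus side was 77280, 10790, 77509 and 77685 bp, so CTR 2 alone was low, and the symmetry ratio was 0.575, 0.240, 0.580 and 0.591 in CTR 1, CTR 2, NPM1 KD 1 and NPM1 KD 2. Tmem60 is 4680 bp long, so most of the plus-side reach lay beyond the gene. The fifth, Zfp277/Dock4, had ratios of 0.856 and 0.858 in CTR and 0.205 in both NPM1 KD libraries, and is described with the knockdown.

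Among 97 pairs with mean reaches of at least 10 kb on both sides, the most balanced were Vmp1/Ptrh2, Cdca2/Kctd9, Ccdc92/Zfp664, Ttc13/Arv1 and Cryzl1/Itsn1, with mean symmetry ratios of 0.911 to 0.956. Vmp1, a membrane protein of autophagosome formation, reached 18713, 18343, 18705 and 18883 bp and Ptrh2, a mitochondrial peptidyl-tRNA hydrolase, 19565, 17952, 20095 and 19723 bp. The 2 genes are 99972 and 8473 bp long, so the equal reach ended within Vmp1 and beyond the end of Ptrh2. Cryzl1/Itsn1 and Cdca2/Kctd9 were balanced without a common peak over the starts in any library.

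At pairs marked on 1 side the mark often stopped at the promoter. In 164 to 188 such pairs per library, the other gene had no covered base in its first 5 kb in 45.7% to 59.0%. Coverage in the 2 kb upstream of the marked gene had a median of 93.5, 30, 109 and 46 bp in CTR 1, CTR 2, NPM1 KD 1 and NPM1 KD 2, and at marked isolated genes it was 83, 20, 123 and 41 bp. Those 2 kb lie mostly in the other gene, whose coverage had to stay below the marked threshold for the pair to count here. Low values there, and their likeness to isolated genes, are thus partly built in by the call. They are no separate test of whether the mark stopped at the promoter. The marked gene was the longer of the pair in 65 of the 139 pairs (46.8%). In 62 pairs the reach was above 0 on a single side in all 4 libraries with nothing in the first 5 kb of the other. The 5 of these with the longest reach were all marked on the minus-strand gene. Surf4, a cargo receptor of the endoplasmic reticulum, had reaches of 37473, 37487, 43031 and 42867 bp, past the end of its 13889 bp, and Stkld1 was at 0. Ranbp10 reached 41456 to 42197 bp and Tsnaxip1 was at 0. Nt5c3, a 5′-nucleotidase, reached 34011 to 34947 bp opposite Vmn1r4, a vomeronasal receptor. Zfp91 reached 29981 to 30719 bp opposite Lpxn, an adaptor of focal adhesions. Fam219a reached 22779, 26280, 47518 and 26303 bp opposite Dnaic1, a chain of the axonemal dynein of cilia.

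The 61 pairs marked on neither side included genes known for use in other tissues. Examples, chosen after their values were seen, are Col4a4/Col4a3, Duox2/Duoxa2 (thyroid hydrogen peroxide synthesis), Klc3/Ckm (Ckm encodes muscle creatine kinase), Kirrel2/Nphs1 (Nphs1 encodes nephrin of the kidney filter) and Pecam1/Milr1 (Pecam1 marks endothelium). Of the 120 genes of these pairs, 91 had no covered base anywhere in the gene in any library, and 6 had at least 50% of the gene covered in all 4 libraries. In Dgcr2, Nisch and Rnf14 the first 5 kb were at 0 in all 4 libraries but 53.5% to 67.8% of the gene was covered. Trim28, a corepressor of zinc finger proteins, had 10195 to 12041 covered bp and none in its first 5 kb. For such genes the annotated 5′ end and the covered part of the gene did not meet.

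Of all pair genes, 1091 of 1450 (75.2%) were marked in all 4 libraries, and functional groups are set beside this share. All 18 genes of the mitochondrial ribosome in pairs were marked in all 4 libraries, and so were all 23 of the respiratory chain and its assembly factors. Mrpl49, of the large mitochondrial ribosomal subunit, reached 16130 to 17121 bp, and Ndufa8, of complex I, 11286 to 12313 bp. Outside pairs, 56 of 60 and 68 of 81 genes of these groups were marked in all 4 libraries. The partner of the pair gene was marked as well in 13 of 18 and 19 of 23 cases. Among 27 genes of DNA repair and replication 23 were marked in all 4 libraries and 2 in none, Xrcc3 and Rad51b, which both act in homologous recombination. Outside pairs, 51 of 65 genes of this group were marked in all 4. Among 20 zinc finger genes 18 were marked in all 4 and 2 in none, Zfp558 and Zfp661, and outside pairs 253 of 365 were marked in all 4. Zfp661 was at 0 bp while its partner Mrps5 reached 6085 to 8162 bp.

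Chaperones were mixed, with 8 of 12 marked in all 4 libraries and 4 in none, and outside pairs 48 of 69 were marked in all 4. The chaperonin subunit genes Cct3 and Cct5 reached 22518 to 22926 and 10588 to 10923 bp, whereas Hspa1a and Hspa1l, the inducible and the testis member of the HSP70 family, were both at 0 bp. The collagen list held 3 names, of which Col4a3 and Col4a4 were at 0 and Col4a3bp, a ceramide transfer protein and no collagen, reached 29015 to 29477 bp.

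Histone genes stood at the other end, with 1 of 27 marked in all 4 libraries and 17 in none, and 14 of the 735 pairs held a histone gene. Of 40 histone genes outside pairs, 9 were marked in all 4 libraries and 22 in none. Canonical histone genes are short, highly alike and clustered, so reads may not be assigned to a single copy and their values are uncertain. The 1 gene marked throughout was Hist2h2be, at 6706, 6859, 8806 and 7373 bp in CTR 1, CTR 2, NPM1 KD 1 and NPM1 KD 2. Hist1h2bc had 0, 0, 7112 and 6740 bp, Hist1h2bn 0, 0, 3914 and 4063 bp, Hist1h2bg 0, 0, 2699 and 2808 bp and Hist1h2ak 0, 0, 2187 and 2303 bp. In these 4 genes both CTR libraries were at 0 and both NPM1 KD libraries were not. Hist1h2bn, Hist1h2bg and Hist1h2ak are 381, 618 and 393 bp long, so most of their reach lay beyond the gene.

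Promoter composition followed the order of the marking classes. Over the 300 bp centred on the pair, the ratio of observed to expected CpG had a median of 0.890 in pairs marked on both sides, 0.818 in pairs marked on 1 side and 0.524 in pairs marked on neither. The median GC content was 64%, 59.7% and 56%. At 300 bp of isolated starts (250 bp upstream to 50 bp downstream) the median CpG ratio was 0.790 for the 3763 marked in all 4 libraries and 0.233 for the 6988 marked in none. Composition also went with the distance between the starts. In pairs up to 250 bp apart the median CpG ratio was 0.885 and GC content 64%, against 0.742 and 55.7% in pairs over 250 bp apart. Pairs marked on neither side were 4.89% of those up to 100 bp apart and 22.1% of those over 500 bp. The classes thus differ in distance too, and its part was not tested. These are descriptions of the windows with no test, and the pair window holds the starts of 2 genes where the distance is short.

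The GABPA letters CCGGAAG, on either strand, were present in 208 of 735 pairs (28.3%), against 7.92% of isolated starts and 11.0% of the starts of all protein-coding genes. In pairs marked on both sides, on 1 side and on neither side the share was 32.5%, 21.6% and 8.20%. By distance it was 33.1% in pairs up to 250 bp apart and 13.1% in pairs over 250 bp apart. The NRF1 letters GCGCATGC were present in 6.67% of pairs and 2.86% of isolated starts, and the YY1 letters AAGATGGCG in 5.44% and 1.23%. NRF1 letters did not follow the order of the classes, with 6.59% of pairs marked on both sides, 8.63% on 1 side and 1.64% on neither. CCAAT was present in 44.5% and 38.2%. TATAAA was present in 4.49% of pairs and 15.2% of isolated starts, and in 2.64% of the pairs marked on both sides and 9.84% of those on neither. At least 1 of the GABPA, NRF1, YY1 and CCAAT letters was present in 68.4% of pairs marked on both sides. The share was 59.0% of pairs marked on 1 side and 49.2% of those marked on neither. Most pairs were marked and most isolated starts were not, so the marked ones are set beside each other. Isolated starts marked in all 4 libraries held the GABPA letters in 17.01%, the YY1 letters in 3.19%, CCAAT in 38.4% and TATAAA in 6.64%, against 32.5%, 6.81%, 45.1% and 2.64% of pairs marked on both sides. For NRF1 the share was 6.59% in both. None of the 5 motifs lies within another, and a match describes the letters of the window and is no binding site.

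In both NPM1 KD libraries the share of pairs marked on both sides and the extent of the mark were above both CTR libraries, with 2 libraries per group. The share marked on both sides averaged 64.4% ± 1.35 in CTR libraries and 68.3% ± 1.15 after knockdown (SD, 2 libraries a group). The share marked on 1 side was 25.2% ± 0.577 and 22.9% ± 0.866, and that on neither 10.5% ± 0.770 and 8.78% ± 0.289. The groups did not overlap in any of these (exact permutation test, two-sided, p = 0.33 each, the smallest that 2 against 2 allow). The median total extent was 12.8 and 12.4 kb in CTR 1 and CTR 2 and 14.6 and 13.5 kb in NPM1 KD 1 and NPM1 KD 2 (12.6 ± 0.261 against 14.1 ± 0.807 kb, exact p = 0.33). The median symmetry ratio over all pairs with a reach was 0.346 and 0.323 in CTR and 0.347 and 0.346 in NPM1 KD (exact p = 0.33). This difference of 0.0117 rested on single libraries, since it was 0.000583 without CTR 2 and 0.0228 without CTR 1. Among pairs marked on both sides the ratios given above lay the other way, lower in both NPM1 KD libraries. NPM1 KD 1 had the largest covered length of all libraries, and its part in these differences was not tested; without it the difference in marking on both sides was 3.13 percentage points and that in extent 0.916 kb.

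A single peak over both starts did not separate the groups. The share was 63.0% and 62.7% in the CTR libraries, whereas NPM1 KD 1 had 70.7% and NPM1 KD 2 had 61.4%, so both groups spanned a common range (p = 1, two-sided exact permutation). Without NPM1 KD 1 the difference, 3.20 percentage points in favour of NPM1 KD, turned to -1.50.

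The change at pair genes was close to that of all genes. A reach above 0 in at least 1 library was found for 1254 of the 1450 pair genes, and 196 had none. Of the 1254, 509 (40.6%) had both NPM1 KD libraries above both CTR libraries, against 38.6% of all 9988 protein-coding genes tested, and 57 (4.55%) had both below, against 5.09%. The median log2 fold change of reach, after adding 1000 bp, was 0.0668 in pair genes and 0.0584 in all genes. The shares of pair genes thus lay near those of all genes tested. For total extent, 329 of 678 pairs with a peak (48.5%) were above and 19 (2.80%) below without overlap. Of the 587 wider pairs with a peak, 42.9% were above and 2.73% below. The median change in extent was 873.5 bp in the pairs and 574 bp in the wider pairs, a difference that was not tested. Over all 1265 divergent pairs up to 10000 bp apart with a peak, which include the 678, 45.9% were above and 2.77% below.

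Few pair genes passed a test of the single gene. With limma on log2(reach + 1000 bp) across all 9988 genes, 28 of 1254 pair genes (2.23%) had an adjusted p under 0.05, 27 longer and 1 shorter in NPM1 KD, against 265 of 9988 genes, or 2.65%. These calls are fragile. They fell to 0 when the replicate number was fitted as a block (limma, smallest adjusted p = 0.196, with 119 pair genes, or 9.49%, at an unadjusted p under 0.05, against 9.33% of all genes). They were also lost in some fits with 1 library left out. Such a fit leaves 1 library in a group, so only its effect size is given. The median log2 fold change of pair genes was 0.0438 without NPM1 KD 1, 0.0822 without NPM1 KD 2, 0.0807 without CTR 1 and 0.0444 without CTR 2. For all genes it was 0.0307, 0.0777, 0.0703 and 0.0351.

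The largest called changes were steps in length. Dock4, an exchange factor of Rac, had reaches of 31576 and 31570 bp in CTR and 179974 and 180017 bp in NPM1 KD (log2 fold change 2.47, SE 0.0202, limma adjusted p = 0.00646). Its partner Zfp277, across 50 bp, had 36898, 36805, 36855 and 36878 bp, and there the groups overlapped. Where broad peaks were joined over gaps of up to 1 kb, Dock4 was at 180029 and 180022 bp in CTR and 194978 and 191227 bp in NPM1 KD, with a limma adjusted p of 0.338, so the step lay at gaps of up to 1 kb in the CTR lists. The other 4 of the 5 largest called rises were Hist1h2bc (log2 fold change 2.99), Apba3 (2.61), Hist1h2bn (2.32) and Cyb561d2 (1.96). Apba3, an adaptor of amyloid precursor protein, was at 0 and 0 bp in CTR and 5641 and 4647 bp in NPM1 KD (SE 0.102, adjusted p = 0.0180), next to Mrpl54 at 4539 to 5361 bp. The single shorter gene, Slf1, had 356 and 367 bp in CTR and 0 in NPM1 KD. Its pair was marked on neither side in any library. In its first 5 kb, 123 and 541 bp were covered in CTR and 152 and 489 bp in NPM1 KD, so coverage there was not lost.

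Joining gaps, an alternative chosen after seeing the data, kept 13 of the 28 calls and gave 32 pair genes in all, against 290 of all genes (2.90%). The values at Ftsj3, a gene of ribosomal RNA processing, were 16901 and 16762 bp in CTR and 59563 and 59519 bp in NPM1 KD, far past the end of its 6938 bp, and 59733, 52333, 59563 and 59519 bp after joining. Slc10a7 had 29578, 32696, 115149 and 115667 bp, and 75388, 32696, 115149 and 161961 bp after joining. For 8 of the 28 both CTR libraries were at 0 bp, 4 of them the histone genes above.

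By total extent, the pairs farthest above CTR without overlap between the groups were Zfp277/Dock4, Rbmxl1/Slc10a7 and Ftsj3/Psmc5, each through the 1 gene just described. Psmc5, a proteasome ATPase and the partner of Ftsj3, had 8989, 8430, 8417 and 8606 bp, and Rbmxl1, the partner of Slc10a7, had 5648, 5608, 5811 and 5481 bp, so the groups overlapped in both partners. The pairs farthest below CTR differed by less. Snx1/Ciao2a went from 7227 and 22823 to 6906 and 5732 bp, and most of that difference came from CTR 2. Rmnd1/Armt1 went from 23654 and 24684 to 23176 and 23046 bp, and Eif3i/Tmem234 from 10780 and 12228 to 10572 and 10767 bp.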

How the data were processed

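H3K79me2 peak lists of 4 N2a libraries (2 CTR, 2 NPM1 KD) were used, 1 narrow and 1 broad list each. Per the methods of the study, the authors aligned paired-end reads to mm10 (GRCm38) with Bowtie2 2.3.4.1, kept reads of high mapping quality and called peaks with MACS2 at default parameters, library by library. The submitters' processing notes give MACS2 2.2.6. Whether the input served as background was not stated, and peak names carry the word filtered in the broad lists only. The deposited fold is the ratio of pileup to background, and the deposited score, −log10 p and −log10 q are those of MACS2, with q adjusted within each library. The background behind each library was solved from the fold and p of its narrow peaks.

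Overlapping peaks were merged, and coverage, reach and common peaks were derived on GENCODE M21 in Python 3.11.15 (scipy 1.17.1, pandas 2.3.3, numpy 2.4.6) and tested on simulated peaks. Groups were compared by exact permutation tests, pairs with other promoters by exact sign-flip tests over libraries, and single genes with limma 3.58.1 (R 4.3.3) on log2(reach + 1000 bp) over genes with a reach above 0 in at least 1 library, with Benjamini-Hochberg adjustment at 0.05, after a test on simulated data. Plots were drawn with matplotlib 3.10.9.

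Named were textbook pairs, the 5 widest, 5 on a single side, 5 most balanced, 3 nearest and 3 farthest pairs, 3 just outside the rule, 3 per direction by extent without overlap, and up to 5 called genes per direction. Examples within gene groups and pairs on neither side were chosen after their values were seen. The pairs and lists were chosen with earlier results of these data known. The correlation of deviations between libraries of the same replicate number was 0.0844 over 9988 genes. Each replicate was a separate passage and batch according to the methods, without a statement that CTR and NPM1 KD shared them, so the numbers were not taken as pairs, and the fit with the replicate number as a block is given beside it. Peak lists of the inputs are not analysed here.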

Additional observations from a re-analysis of the deposited data

How the results depend on the processing

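The 10 results tested or counted were recomputed under 83 alternatives, of which 75 were called the same. For the counts this required a value of similar size. In the exact tests the number of libraries keeps p above 0.05, so only a change of direction could be seen. There a much smaller difference still counted as the same. The alternatives were the narrow lists, peaks with −log10 q of at least 5, gaps of up to 1 kb joined, pairs sharing a gene or holding a histone gene left out, other thresholds, a replicate block and each library left out. Leaving out 1 library gave a difference between NPM1 KD and CTR of 2.99 to 4.90 percentage points in pairs marked on both sides, and of -1.50 to 7.89 in pairs with a common peak, where it turned without NPM1 KD 1. The difference in the symmetry ratio was 0.000583 to 0.0228. The balance of narrow peak fold ranged from -0.0809 to 0.0679 and turned without CTR 1 (0.0229) and without NPM1 KD 2. The difference in marking between pair and isolated genes was 40.9 to 46.7 percentage points over all alternatives. The mean Spearman correlation of the reaches was 0.0967 over pairs with a reach on at least 1 side and 0.275 over all pairs, where those with 0 on both sides enter. Pair genes called by limma were 0 with the replicate block and 0 to 32 with 1 library left out, against 28; the block changed no other call, and the 2 libraries per group cannot pass 0.05 in the exact tests. With no filter on reach the limma fit had mostly zero residual variances, so its 27 calls are unreliable. Pair genes without overlap between groups, both directions together, were 510 to 530 under the alternatives, against 566. In the narrow lists with gaps joined, 37.0% of pair genes were above and 4.20% below, against 34.3% and 5.52% of all genes. With −log10 q of at least 5 it was 39.5% and 4.67%, against 38.3% and 5.09%. Depth is unknown, so a side without a peak may hold a mark too weak to be called in that library.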

Other observations

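Divergent pairs on chromosome X were outside the rule and were measured in the same way. By the same distance there were 20 pairs, of which 10, 11, 11 and 10 were marked on both sides in CTR 1, CTR 2, NPM1 KD 1 and NPM1 KD 2, and 6, 7, 6 and 6 on neither side. Their median total extent was 5.30, 5.42, 5.75 and 5.62 kb, against 12.4 to 14.6 kb for the autosomal pairs. With 20 pairs this is a description with no test.

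The reaches of 3 genes of the respiratory chain moved between single libraries. Atp5c1, the gamma subunit of ATP synthase, had 109665, 109669, 25292 and 109743 bp in CTR 1, CTR 2, NPM1 KD 1 and NPM1 KD 2, with a gene length of 24495 bp, so NPM1 KD 1 alone ended near the end of the gene. Ndufaf2 had 31073, 30872, 30791 and 38613 bp. Sdhc had 9818, 6798, 7072 and 10066 bp. These genes were chosen after their values were seen.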
